A study of Mus musculus with 9 samples.

Results

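Classical monocytes were picked cell by cell from single-cell RNA-seq of CD11b+ cells of the mouse gut, and 1465 of 31759 kept cells (4.61%) met the rule. A cell was kept when mitochondrial transcripts made up at most 15% of its unique molecular identifiers (UMIs, each 1 captured RNA molecule) and at least 200 genes were detected, which left 31759 of 37123 barcodes. A kept cell was called a monocyte when it held at least 2 UMIs of Ly6c2, at least 1 of Ccr2 and at least 10 of Lyz2. It also had to hold fewer than 5 UMIs of C1qa, C1qb and C1qc together per 10000, less than 0.5% of its UMIs as S100a8 and S100a9, fewer than 2 UMIs of Cd209a, and none of Mzb1, Xcr1 or Cd79a. These 12 genes chose the cells, so their levels are given only as a description, and a comparison of the monocytes with other cells carries no test.

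The study profiled CD11b+ lamina propria cells of male C57BL/6 mice of 7 to 8 weeks with the 10x Genomics 3' kit, in 9 libraries of 6 groups. Wild-type colon was sampled from specific pathogen free (SPF) mice (2 libraries), germ-free (GF) mice (2), SPF mice given pan-antibiotics (1) and SPF mice given dextran sodium sulfate (DSS, 1), a chemical that injures the colon lining. A further colon library came from DSS-treated mice of the genotype Nlrc4 deficient, and 2 libraries came from the small intestine of wild-type mice named normal, with no SPF label. DSS was given at 2.5% in the drinking water for 7 days before a change to plain water, and the day of sampling is not given. The antibiotics were ampicillin at 1 g/L, vancomycin at 0.5 g/L, neomycin at 1 g/L and metronidazole at 1 g/L, for a week or sometimes longer. All groups share the CD11b sort, and the study describes its sorted colon cells as pooled from several mice. Whether the replicate libraries of a group came from separate mice is not stated, so a test over them measures only the spread between these samples.

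Classical monocytes leave the bone marrow by means of the chemokine receptor CCR2, circulate with high surface Ly6C, and enter the gut wall throughout life. In the lamina propria they lose Ly6C, gain MHC class II and mature into macrophages that carry the complement protein C1q. In an inflamed gut they enter in larger numbers and make inflammatory cytokines, and their products can both clear microbes and injure tissue.

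The libraries held 13243317 to 64453601 UMIs over all barcodes, and the monocytes held 8948 to 8829472 UMIs a library, with medians of 6222.5 to 10460 UMIs a cell. Median mitochondrial shares of the monocytes were 1.78% to 3.83%. No monocyte barcode occurred in more than 1 library, and at most 18 kept barcodes were shared within any of the 36 pairs of libraries. Levels are given as CPM, a gene's UMIs scaled to 1000000 UMIs of the monocytes in a library. Each transcript is counted near its 3' end, so CPM was not divided by gene length. Intervals are exact 95% intervals that cover counting error only.

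Monocytes were most frequent in the DSS-treated colon and rarest in the small intestine and the germ-free colon. In the SPF colon they made up 5.35% of kept cells in library 1 (140 cells, interval 4.52 to 6.29) and 5.10% in library 2 (124 cells, 4.26 to 6.05). The DSS colon held 7.18% (299 cells, 6.42 to 8.01). The DSS library labelled Nlrc4 deficient held 11.99% (803 cells, 11.2 to 12.8). These 4 colon libraries therefore carried nearly all of the monocytes, and both DSS libraries lay above both SPF libraries. After antibiotics the share was 1.97% (48 cells, 1.46 to 2.61). The GF colon libraries held 0.0690% (1 cell, up to 0.384) and 0.949% (27 cells, 0.626 to 1.38). The small intestine held 0.274% (10 cells, 0.131 to 0.503) and 0.238% (13 cells, 0.127 to 0.406). The groups of 2 libraries did not overlap with the SPF colon, although an exact two-sided permutation test of 2 against 2 libraries cannot give a p below 0.333.

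**Figure D1:**
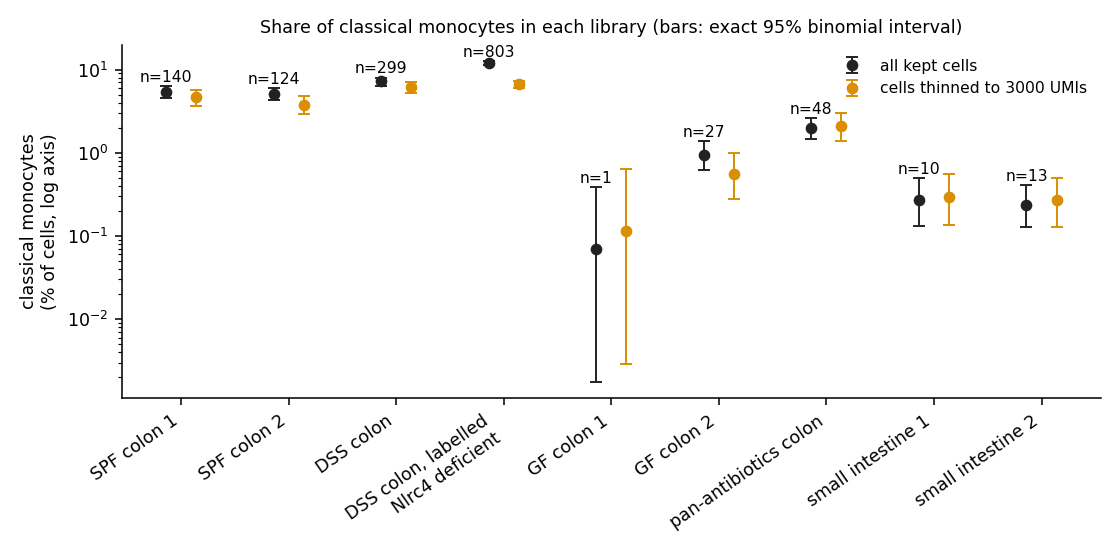
Monocytes as a percent of kept cells in each of the 9 libraries (bars with exact 95% binomial intervals). The shares run from 0.0690% in a GF colon library to 11.99% in the DSS library labelled Nlrc4 deficient, with the SPF colon libraries at 5.35% and 5.10%.

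Because the rule counts UMIs, deeper cells pass it more readily. Cells were therefore also thinned to 3000 UMIs, with shallower cells left out, which kept 1730 of 2615 and 1681 of 2431 cells of the SPF colon, 2644 of 4162 of the DSS colon and 5667 of 6698 of the library labelled Nlrc4 deficient, so the denominators changed unevenly. The shares of the SPF colon were 4.62% and 3.75%, that of the DSS colon was 6.09% and that of the library labelled Nlrc4 deficient was 6.69%. Both DSS libraries stayed above both SPF libraries, but the distance between the DSS libraries was small among the thinned cells, where their intervals of 5.21 to 7.07 and 6.05 to 7.37 overlapped. The thinned interval of SPF colon library 1, 3.68 to 5.72, also overlapped that of the DSS colon. The kept cells of the library labelled Nlrc4 deficient had a median of 8358 UMIs, against 4323 in the DSS colon. Taken over cells with at least 10 UMIs of Lyz2 instead, the lysozyme gene of myeloid cells, monocytes made up 29.7% and 41.9% in the SPF colon, 54.7% in the DSS colon and 37.1% in the library labelled Nlrc4 deficient. On that denominator the latter library lay between the SPF colon libraries. Antibiotic-treated colon gave 24.2%, GF colon 0.769% and 14.1%, and small intestine 5.32% and 3.19%.

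At the edge of the rule, 129 members had exactly 2 UMIs of Ly6c2 and 181 cells with 1 UMI met all other criteria. A single UMI of Ccr2 carried 203 members, and 64 members had 10 to 12 UMIs of Lyz2. Of the cells that missed only 1 criterion, 573 missed Ly6c2, 443 missed Lyz2, 358 had too much C1q, 212 lacked Ccr2 and 121 held a UMI of Xcr1. A C1q UMI was present in 259 members.

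Other markers named for classical monocytes were high in these cells in the 4 larger colon libraries, so their name was kept. The name also covers cells high in MHC class II, which maturing monocytes gain. At or above 100 UMIs of it per 10000 were 64.3% of the cells in SPF colon library 1 and 16.1% in library 2. F10, which encodes coagulation factor X, was at 356 and 749 CPM in SPF colon monocytes, at 414 in the DSS colon and at 886 in the library labelled Nlrc4 deficient, against 15.9 to 157 CPM in C1q-high macrophages of the same 4 libraries (at least 50 C1q UMIs per 10000, 698 cells over all 9 libraries). Chil3, a chitinase-like protein of myeloid cells, was at 563, 699.6, 1456 and 1383 CPM in the same order, against 3.61 to 120.2 in those macrophages. Vcan, the matrix proteoglycan versican, was at 66.2 to 235 CPM against 1.04 to 17.5, and Plac8 at 3113 to 5212 against 47.6 to 950.4. Cd81, a tetraspanin, ran the other way, at 3.51 to 8.51 CPM in monocytes and 176 to 719 in the C1q-high macrophages. Monocytes and macrophages did not overlap between libraries in any of these 5 genes. All 5 also ranked among the 15 genes per direction that separated these sets most in every library, so this is no independent check. The 20 classical monocyte genes summed to 15372 CPM in neutrophils of SPF colon library 2, against 14602 in its monocytes. In the other larger libraries they summed to less in neutrophils than in monocytes. The cells most like the monocytes, with low C1q but without the rule's Ly6c2, were nearer than the macrophages. They held 192 to 637 CPM of F10 and 74.0 to 677 of Chil3, in each library below its monocytes but overlapping them across libraries.

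**Figure D2:**
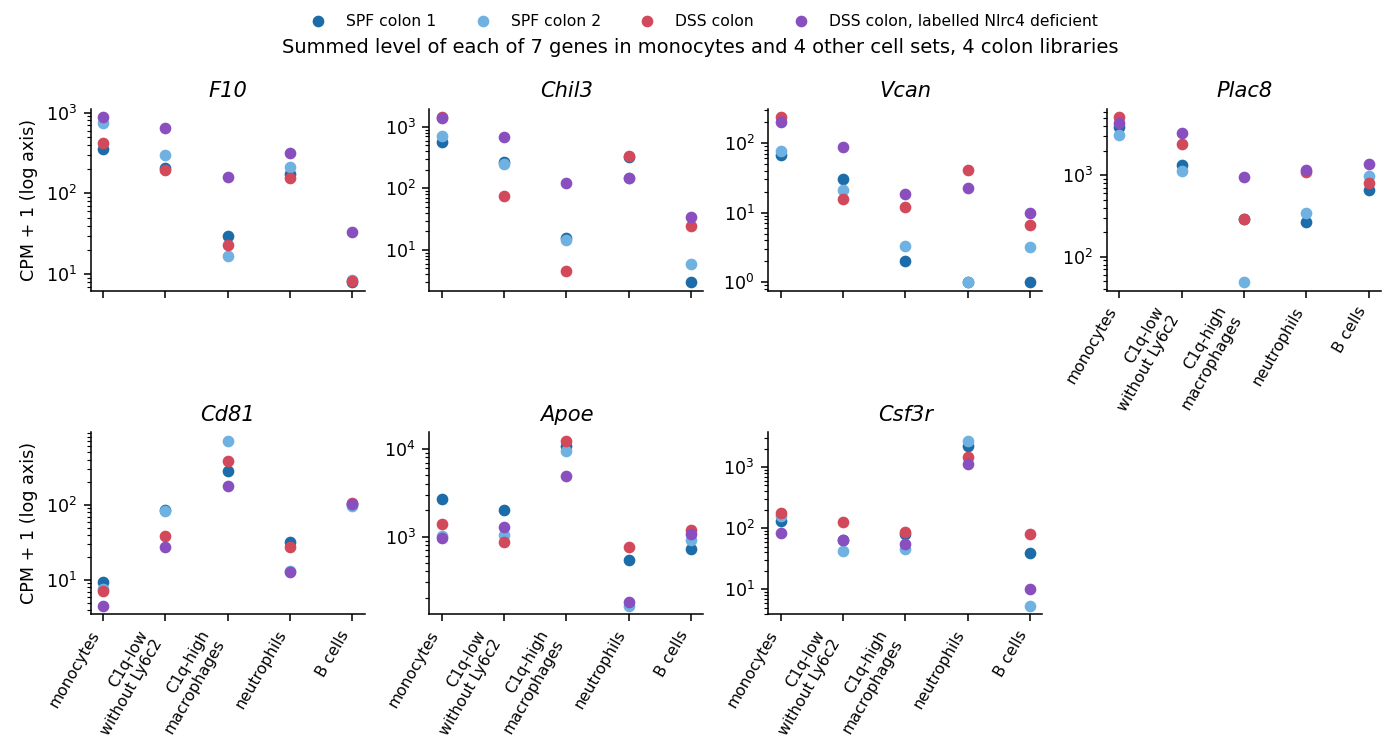
CPM (log axis) of monocyte and macrophage genes in the monocytes and in comparison sets of cells, with a point for each of the 4 colon libraries with at least 100 monocytes. F10 sits at 356 to 886 CPM in monocytes and at 15.9 to 157 in C1q-high macrophages, and Cd81 at 3.51 to 8.51 and 176 to 719.

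Thinned to 2000 UMIs a cell, F10 was seen in 46.8%, 68.5%, 51.5% and 71.5% of monocytes of the SPF 1, SPF 2, DSS and labelled Nlrc4-deficient libraries, and in 0% to 3.18% of B cells, which should lack it. The median depths before thinning were 7404.5 to 10460 UMIs in monocytes and 4184.5 to 6104 in B cells, and the unthinned shares of monocytes were 71.4% to 94.8%. Chil3 was seen in 25.2%, 35.5%, 38.4% and 55.3% of thinned monocytes and in 0% to 2.02% of B cells, so that it marked a part of the monocytes only. In the low-C1q cells without Ly6c2 of these libraries, F10 was seen in 31.4% to 55.7% and Chil3 in 13.3% to 40.6% after thinning, and Chil3 in 27.5% in SPF colon library 1, against 25.2% of its monocytes. The gene of the sorted antigen CD11b, Itgam, was seen in 34.5% to 44.4% of thinned monocytes of these libraries and in 3.07% to 7.48% of B cells. The single cell of GF colon library 1 held no UMI of F10, Chil3 or Itgam, so that cell is a monocyte by the rule alone.

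Markers of other cell types were present in the monocytes. Some of them are genes of the rule (Mzb1, Cd79a, S100a8, S100a9 and the C1q genes) and were held low or at 0 by it. Plasma cell genes (Jchain, Igha and Xbp1, with Mzb1 at 0 by the rule) summed to 112 to 4537 CPM across libraries, highest in small intestine library 1, where all kept cells held 158392 CPM of them. The neutrophil markers summed to 95.9 to 482 CPM, highest in the DSS colon, with Ly6g at 0 in both SPF colon libraries, and the B cell markers to 6.23 to 112 CPM. The macrophage markers summed to 879 to 4470 CPM, nearly all of it Apoe (2673 and 1005 CPM in the SPF colon). In SPF colon library 1 that sum was 2799 CPM in monocytes against 2452 in all kept cells, in GF colon library 1 4470 against 2388, and in small intestine library 1 3284 against 768, so there it was no lower in monocytes, whereas the other 6 libraries had less in monocytes. Small intestine library 1 was highest in plasma cell genes both in its monocytes and in all its kept cells, and the part of free RNA in this was not tested.

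Fth1, Malat1, Tmsb4x, Cxcl2, Actb and Lyz2 led the transcripts of the monocytes by level, mitochondrial and ribosomal protein genes aside. Over the 8 libraries with more than 1 monocyte, Fth1, the ferritin heavy chain, was at 9288 to 24064 CPM, Malat1, a nuclear noncoding RNA, at 8368 to 17072 and Tmsb4x, which binds actin monomers, at 8996 to 14372. Cxcl2, a chemokine for neutrophils, was at 2831 to 20585 CPM, and Il1b, interleukin-1 beta, at 642 to 7122. Cd74, the MHC class II invariant chain, was at 3249 to 10093 CPM. Cxcl2 and Il1b thus spanned a wider range over the libraries than Fth1 and Tmsb4x.

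Ordered by the mean rank over 4 libraries of variance over mean in thinned cells, the genes that varied most among monocytes were the ribosomal-RNA-like transcript Gm42418, Cd74, Cxcl2, H2-Aa, H2-Ab1, Chil3, Malat1, Cxcl1, Il1b and Cxcl10. The order differed between libraries: Saa3 was above Cd74 in the DSS colon (17.1 against 11.2) and in the library labelled Nlrc4 deficient (27.3 against 17.5), and Cxcl2 above it in SPF colon library 1 (11.05 against 9.79). The 4 genes H2-Aa, H2-Ab1, H2-Eb1 and the invariant chain gene Cd74 serve the presentation of peptides to helper T cells. They summed to a median of 189.5 per 10000 UMIs in SPF colon library 1, with the 10th and 90th percentiles at 5.57 and 391. SPF colon library 2 had a median of 13.9 (4.15 to 169), the DSS colon 61.8 (2.34 to 296) and the library labelled Nlrc4 deficient 11.7 (1.67 to 303). Cells with almost no MHC class II and cells with a high level were therefore present in all 4 libraries, in different proportions. At or above 100 per 10000 were 64.3% of monocytes in SPF colon library 1 (55.8 to 72.2) and 16.1% in library 2 (10.1 to 23.8), so the replicate libraries of the same group differed by more than counting error. The share was 45.5% in the DSS colon (39.7 to 51.3) and 27.0% in the library labelled Nlrc4 deficient (24.0 to 30.2), both inside the range of the SPF colon. The other libraries gave 4 of 27 cells in GF colon library 2, 10 of 48 after antibiotics, and 5 of 10 and 9 of 13 in the small intestine.

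Chil3 and MHC class II ran against each other from cell to cell. Spearman correlations of their levels per 10000 UMIs were -0.40 in SPF colon library 1 (n = 140 cells), -0.24 in library 2 (n = 124), -0.51 in the DSS colon (n = 299) and -0.40 in the library labelled Nlrc4 deficient (n = 803). F10 against MHC class II gave -0.17, -0.15, -0.33 and -0.27, and Ly6c2, a gene of the rule, -0.24, -0.19, -0.21 and -0.11. All points of a library share its depth and the common total of each cell, and the correlation of UMIs per cell with MHC class II was 0.21, -0.06, 0.10 and 0.02.

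**Figure D3:**
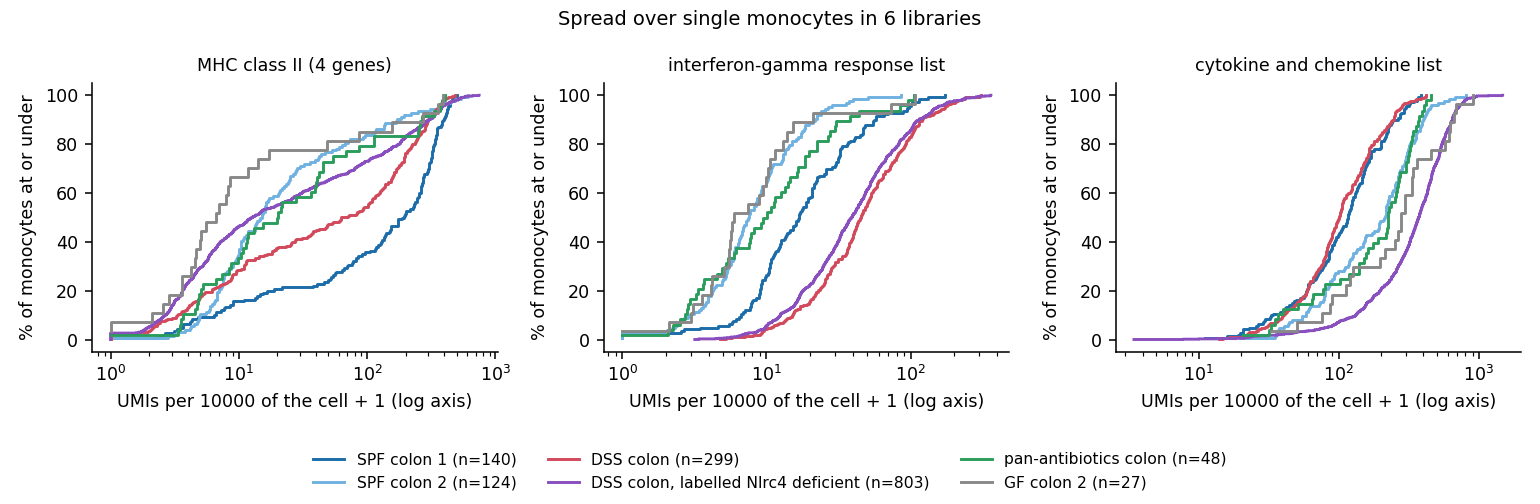
Cumulative percent of monocytes by level per 10000 UMIs (log axis) of MHC class II (H2-Aa, H2-Ab1, H2-Eb1 and Cd74), the interferon-gamma response list and the cytokine and chemokine list. Curves are drawn for the 4 larger colon libraries, the antibiotic-treated colon and GF colon library 2. Medians of MHC class II were 189.5 and 13.9 in the SPF colon, 61.8 in the DSS colon and 11.7 in the library labelled Nlrc4 deficient.

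The SPF colon libraries also differed in whole gene groups, which sets the scale for every comparison against them. The 9 MHC class II genes summed to 20877 CPM in library 1 and 6609.8 in library 2, the 18 interferon-gamma response genes to 2647 and 1034, and the 23 cytokine and chemokine genes to 13011 and 22641. For groups with 1 library, a gene was therefore compared as the log2 ratio of its CPM plus 5 to the mean of both SPF libraries, counted when past 2-fold, and checked for lying outside both SPF values. Such a comparison has no replicate check and no p. The gene lists were chosen with earlier results of these data known. Counts within a list are therefore set beside the share of all genes only as a description.

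DSS colon monocytes carried more of the transcripts that interferon-gamma is known to induce. Of the 18 genes in that list, 17 had enough UMIs to be compared (Ido1 had not), and all 17 were past 2-fold higher than the SPF colon and above both SPF libraries, where 1.82% of all 9903 genes were past 2-fold higher. Their median log2 ratio was 1.75 (lowest 1.06, highest 3.63), against 0.04 over all genes. As the list was chosen with earlier results of these data known, this contrast with all genes is a description and not a test. Against SPF colon library 1 alone, which itself had the higher levels, 13 of 17 were past 2-fold and the median was 1.27; against library 2 alone all 17 were, with a median of 2.57.

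Gbp2, a guanylate-binding protein that attacks vacuoles of microbes, was at 232 and 102 CPM in SPF colon monocytes and at 754 in the DSS colon (720.4 to 789.8), a log2 ratio of 2.15. The immunity-related GTPase Iigp1 was at 19.9 and 0.82 CPM against 184 (168 to 202), the largest log2 ratio of the list at 3.63. Thinned to 2000 UMIs, it was seen in 16.2% of DSS colon monocytes and 0.505% of B cells of that library, and in 2.88% and 0% of SPF colon monocytes (unthinned, 31.1% against 5.71% and 0.806%). The T cell chemokine Cxcl9 was at 247 and 14.8 CPM against 617, seen in 28.3% of thinned DSS colon monocytes and 3.54% of its B cells (35.1% and 7.77% unthinned), and Cxcl10, a ligand of the same receptor, at 456 and 248 against 1099. The transcription factor gene Irf1 was at 234 and 167 CPM against 476, a log2 ratio of 1.23. Nos2, the inducible nitric oxide synthase, had 0 UMIs in both SPF libraries and 60 in the DSS colon, at least 18.7-fold higher against a floor of 3 UMIs over the SPF group and its UMIs lay in 11 of 299 cells. Seen in 2.02% of thinned DSS colon monocytes, 2.08% of neutrophils and 1.01% of B cells (3.68%, 3.30% and 1.94% unthinned), Nos2 was in hardly more monocytes than other cells of that library. With Nos2 at that bound the median of the list remained 1.75. Members of the immunoproteasome and peptide transport, Psmb8, Psmb9 and Tap1, had log2 ratios of 1.06, 1.11 and 1.09, the smallest of the list.

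**Figure D4:**
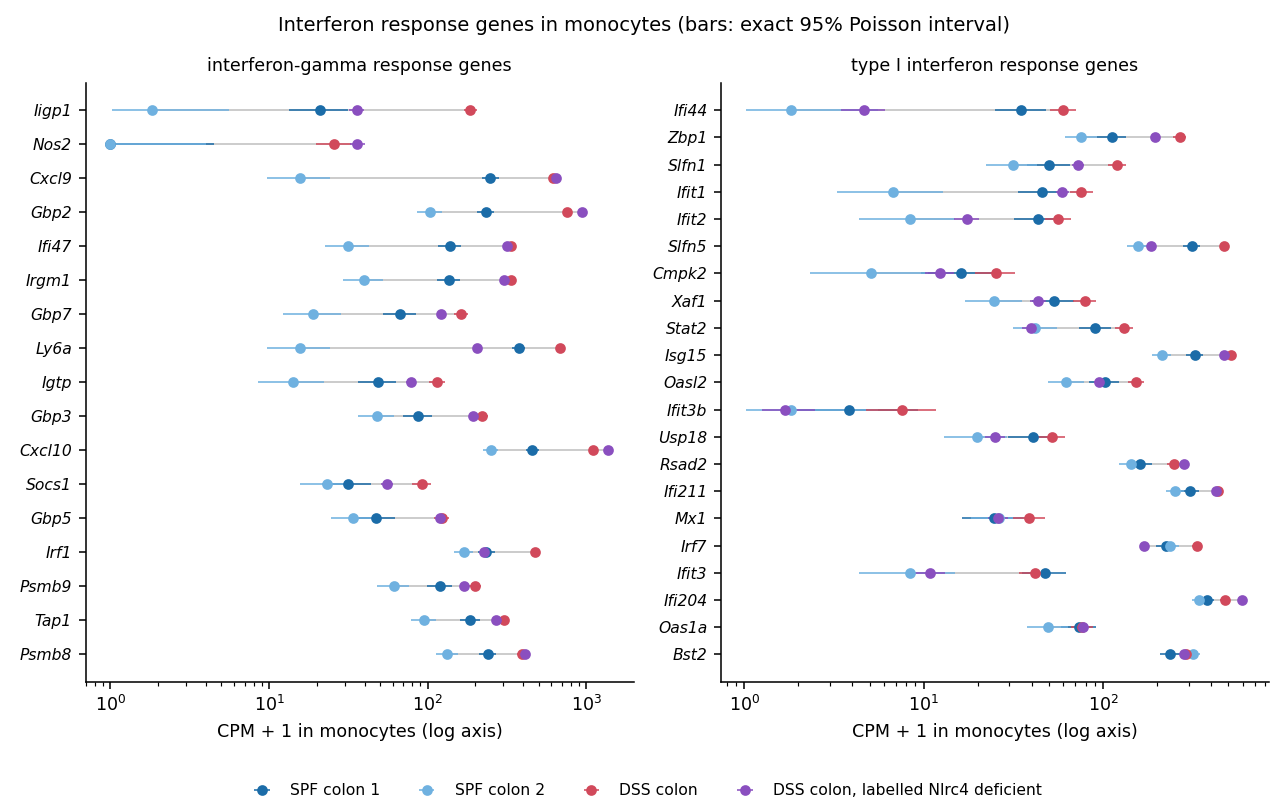
CPM (log axis) of interferon-gamma and type I interferon response genes in monocytes. Shown are the SPF colon libraries, the DSS colon and the library labelled Nlrc4 deficient. The DSS colon lies above both SPF colon libraries for all 17 compared interferon-gamma response genes, for example at 754 CPM of Gbp2 against 232 and 102.

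Other cells of the DSS colon also held more of these transcripts than in the SPF colon. The list summed to 6099 CPM in DSS colon monocytes against 2647 and 1034 in the SPF colon, and to 5457 in the library labelled Nlrc4 deficient. C1q-mid cells (5 to under 50 C1q UMIs per 10000) held 2716 and 1348 CPM in the SPF colon and 5569 in the DSS colon, C1q-high macrophages 2039.6 and 1757 against 3949, and B cells 889 and 511 against 1437. Neutrophils held 3182 and 469.6 CPM against 3416. In the other groups, monocytes held 1139 CPM in GF colon library 2, 1681 after antibiotics, and 1543 and 2003 in the small intestine, all inside the range of the SPF colon. Per cell, the list had a median of 44.0 per 10000 UMIs in the DSS colon (10th to 90th percentile 14.2 to 118), against 15.8 (5.68 to 54.6) and 6.48 (2.03 to 20.6) in the SPF colon, and no DSS colon monocyte was without a UMI of it.

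Promoters of these genes are known to hold the gamma-activated site (GAS) and the interferon-regulatory factor (IRF) element, and a search for both shows what letters stand near the starts of the genes that were higher in the DSS colon. RefSeq promoter windows of build GRCm38.p6, from 250 bases before to 50 after the start, were matched for 14 of the 18 genes. GAS, written TTCNNNGAA, was found in 5 of the 14 (35.7%) and in 9.55% of all 27025 genes with a window. IRF, written as GAAA, 2 bases of any kind and GAAA again, was found in 8 of 14 (57.1%) and in 3.99% of all genes, on either strand, and Gbp5, Gbp7 and Igtp held both. The type I interferon list had GAS in 3 of 17 genes (17.6%) and IRF in 10 (58.8%), and the cytokine and chemokine list had GAS in 0 of 14 and IRF in 1. Classical monocyte genes had GAS in 5 of 12 (41.7%) and IRF in 2, MHC class II genes GAS in 1 of 6 and IRF in 0, and inflammasome genes neither in 13. The share with GAS was thus not highest in the interferon-gamma list. Cxcl9, Tap1, Psmb9 and Ifi47 held neither in this window. These 6 stretches were chosen because they hold a match, and the capitals mark the letters matched to the motif named, which for Gbp2 are the IRF letters of the opposite strand. Each is printed on the strand of its gene, Gbp7 holds GAS at 2 places, and Irgm1 holds overlapping matches to IRF.
Irf1 with GAS (chr11:53769879-53769977, plus strand): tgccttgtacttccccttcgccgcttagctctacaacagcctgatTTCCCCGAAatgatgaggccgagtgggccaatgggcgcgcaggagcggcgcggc
Gbp7 with GAS (chr3:142530185-142530283, plus strand): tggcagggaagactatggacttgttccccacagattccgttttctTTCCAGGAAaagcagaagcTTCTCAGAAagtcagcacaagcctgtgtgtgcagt
Igtp with GAS (chr11:58199466-58199555, plus strand): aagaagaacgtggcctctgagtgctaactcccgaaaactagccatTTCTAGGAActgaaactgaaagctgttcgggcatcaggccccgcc
Gbp2 with IRF (chr3:142620559-142620658, plus strand): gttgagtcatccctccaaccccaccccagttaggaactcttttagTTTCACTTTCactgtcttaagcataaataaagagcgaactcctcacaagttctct
Cxcl10 with IRF (chr5:92349048-92349139, minus strand): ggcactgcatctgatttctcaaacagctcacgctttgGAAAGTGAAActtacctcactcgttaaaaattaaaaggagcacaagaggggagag
Irgm1 with IRF (chr11:48871421-48871495, minus strand): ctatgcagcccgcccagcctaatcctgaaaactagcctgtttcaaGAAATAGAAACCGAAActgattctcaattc
The match began 90 bases before the start in Irf1, 106 in Gbp7 (the first of its matches), 45 in Igtp, 59 in Gbp2, 213 in Cxcl10 and 30 in Irgm1. Log2 ratios of these genes in DSS colon monocytes were 1.23 for Irf1, 1.82 for Gbp7, 1.75 for Igtp, 2.15 for Gbp2, 1.63 for Cxcl10 and 1.89 for Irgm1. Genes without either motif reached similar ratios (2.20 for Cxcl9 and 1.95 for Ifi47), and a match in a window is not a bound site.

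Type I interferon response genes were higher in part. Of 22 genes 8 were past 2-fold higher in DSS colon monocytes and none lower, with a median log2 ratio of 0.90, beside 1.82% of all genes higher. Against SPF colon library 1 alone 3 of the 22 were past 2-fold, against library 2 alone 14, and 5 after centring on the median of all genes. Ifit1, which binds foreign RNA, was at 44.4 and 5.74 CPM in the SPF colon against 74.8 in the DSS colon, and Zbp1, a nucleic acid sensor, at 111 and 74.6 against 266. Isg15, the ubiquitin-like modifier, was at 324 and 212 CPM against 517 and stayed under 2-fold. The type I interferon list was also higher in other cells of the DSS colon, so the rise was not particular to monocytes. Monocytes held 2873 and 2126 CPM of it in the SPF colon against 4394. B cells held 430 and 304 against 984, C1q-high macrophages 1680 and 2931 against 4017, and neutrophils 3029 and 3027 against 3587.

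Outside the interferon lists, the genes with the largest ratios in DSS colon monocytes included an acute-phase protein, an Fc receptor and a neutrophil collagenase. Saa3, serum amyloid A3, was at 74.7 and 106 CPM in the SPF colon and 673 in the DSS colon (641 to 706), a log2 ratio of 2.83, and it was seen in 21.2% of thinned DSS colon monocytes against 3.597% and 8.87% in the SPF colon and 5.05% of DSS colon B cells (30.4%, 9.29%, 9.68% and 8.74% unthinned). Fcgr4, an activating receptor for IgG, was at 91.7 and 33.6 CPM against 317 (log2 ratio 2.25), and Fcgr1 at 151 and 58.2 against 253 (1.23). Mmp8 was at 36.9 and 36.1 CPM against 149, and the ectoenzyme gene Cd38 at 22.7 and 20.5 against 99.4. Lcn2, the siderophore-binding lipocalin, had 0 UMIs in both SPF libraries and 67 in the DSS colon, at least 20.9-fold higher. The monocyte genes Chil3 and Vcan had log2 ratios of 1.20 and 1.66. Among neutrophil markers outside the rule, Retnlg was at 34.98 and 6.56 CPM against 86.7, and the whole neutrophil list, with the rule's S100a8 and S100a9, summed to 194 and 176 CPM against 482; its part in these results was not tested.

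Genes lower in DSS colon monocytes included Il10, Hmox1 and Gdf15, with 1.43% of all genes past 2-fold lower (1.22% also below both SPF libraries). Il10, the anti-inflammatory interleukin, was at 391 and 901 CPM in the SPF colon and 147 in the DSS colon (132 to 163), a log2 ratio of -2.10. Hmox1, heme oxygenase-1, was at 451 and 1759 CPM against 332 (-1.72), close to SPF library 1. The stress cytokine Gdf15 was at 113 and 343 CPM against 38.6 (-2.42), and Spic, a transcription factor of heme-recycling macrophages, at 27.4 and 97.6 against 6.57. Edn1, Met, Mrc1 and Abcc1 were also past 2-fold lower and below both SPF libraries. Of 22 compared cytokine and chemokine genes, 1 was past 2-fold higher, Il12b (0 and 0.82 CPM against 8.21), and 4 were lower. These were Il6 (82.3 and 398 CPM against 85.8, between both SPF libraries), Cxcl1 (529 and 608 against 250.1), Ccl3 (434 and 1263 against 346) and Areg (43.5 and 52.5 against 11.9). The median log2 ratio of the list was -0.41. MHC class II genes were not past 2-fold in either direction (0 of 9, median 0.16).

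In the library labelled Nlrc4 deficient, the targeted gene was read first. Nlrc4, a sensor adaptor of the inflammasome, was at 34.2 CPM in monocytes (302 UMIs, 30.5 to 38.3), against 16.0 in the DSS colon (11.4 to 21.9) and 22.7 and 18.0 in the SPF colon. Over all kept cells it was at 19.9 CPM, against 2.42 to 16.5 in the other libraries. Its RNA was therefore not lower there, and since the deleted part of the gene is not given and only 3' ends are counted, these reads do not check the label. All directions below rest on that label, and both sides of the comparison are single libraries.

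Monocytes of the library labelled Nlrc4 deficient held more cytokine and chemokine transcripts than those of the DSS colon. Of the 23 genes of that list, 12 were past 2-fold higher and 3 lower, with a median log2 ratio of 1.15, where 2.12% of all 10967 genes were past 2-fold higher and 5.55% lower. The median over all genes was -0.22, and with ratios centred on it the split of all genes past 2-fold turned from 232 higher and 609 lower to 375 higher and 300 lower, while the list kept 12 higher with a median of 1.37. Il1a, interleukin-1 alpha, was at 64.5 CPM in the DSS colon (54.8 to 75.4) and 658 in the library labelled Nlrc4 deficient (642 to 676), the largest ratio of the list at 3.26. The neutrophil chemokine Cxcl1 was at 250.1 against 2055 CPM (log2 ratio 3.01), and Cxcl2 at 4910.2 against 20585 (2.07). The chemokine Ccl4 was at 432 against 2494 CPM (2.52), and Il1b at 3135 against 7122 (1.18). Thinned to 2000 UMIs, Il1a was seen in 49.7% of these monocytes against 9.09% in the DSS colon, and in 3.37% and 1.52% of B cells (unthinned, 73.0%, 20.7%, 6.01% and 2.91%). Cxcl1 was seen in 57.3% against 18.2% of thinned monocytes, and in 5.43% and 5.05% of B cells (unthinned, 69.1%, 27.8%, 12.6% and 8.25%). Median depths before thinning were 10460 and 7765 UMIs in monocytes and 6104 and 4184.5 in B cells. Ccl5, Inhba, Areg, Cxcl3, Ccl3, Il6 and Tnf were the other genes past 2-fold higher, with log2 ratios from 1.15 for Tnf to 2.38 for Ccl5. Vegfa (-1.44), Ccl7 and Il12b were past 2-fold lower.

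**Figure D5:**
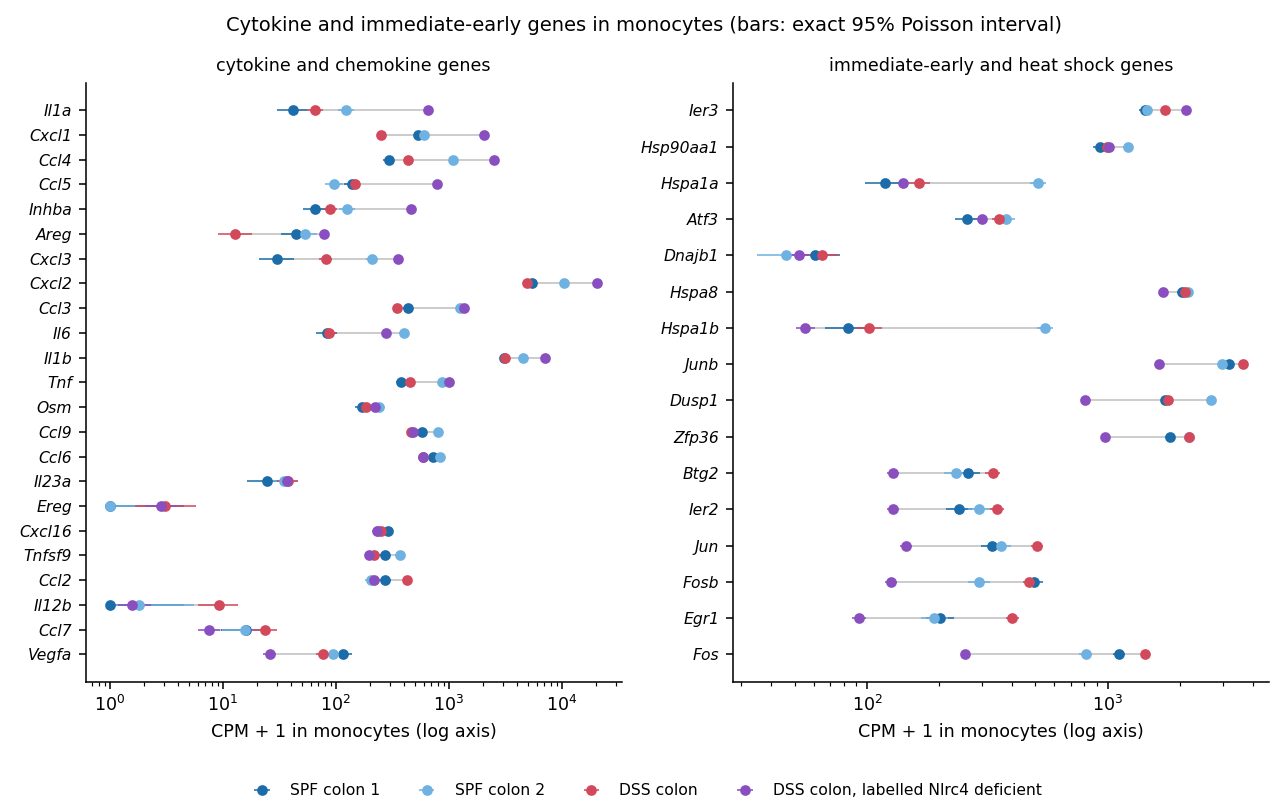
CPM (log axis) of cytokine and chemokine genes and of immediate-early and heat shock genes in monocytes. Shown are the SPF colon libraries, the DSS colon and the library labelled Nlrc4 deficient. The library labelled Nlrc4 deficient lies above the DSS colon for Il1a (658 against 64.5) and Cxcl1 (2055 against 250.1), and below it for Fos (255 against 1423).

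The same list was also high in other cells of that library and in other monocytes. It summed to 39252 CPM in its monocytes, against 12272 in the DSS colon and 13011 and 22641 in the SPF colon, so DSS colon monocytes lay below both SPF libraries. C1q-high macrophages held 39918 CPM against 10728 in the DSS colon, neutrophils 64991 against 30375, and B cells 2625 against 2298. Monocytes of GF colon library 2 reached 32382 CPM and those of the antibiotic-treated colon 23048, whereas the small intestine held 9471 and 10431. By cell, medians per 10000 UMIs were 370.2 in the library labelled Nlrc4 deficient (10th to 90th percentile 131 to 646), 99.5 in the DSS colon (39.7 to 242) and 115 and 209.8 in the SPF colon.

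Immediate-early genes ran the other way in the library labelled Nlrc4 deficient. Of 16 immediate-early and heat shock genes, which are also known to respond to tissue digestion, 9 were past 2-fold lower and none higher (median log2 ratio -1.15; 6 genes and -0.93 after centring). Fos was at 1109 and 808 CPM in the SPF colon, 1423 in the DSS colon and 255 in this library (log2 ratio -2.46), Egr1 at 400.05 against 91.6 and Jun at 508 against 144. Hspa1a and Hsp90aa1, heat shock chaperones, stayed under 2-fold (-0.21 and 0.02). The list was also lower in B cells (4712 against 8198 CPM) and neutrophils (10983 against 22209) of that library, and the part of cell handling in these levels was not tested.

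Slpi, Hmox1 and Srxn1 were among the genes with the largest ratios. Slpi, a secreted protease inhibitor, was at 318 CPM in the DSS colon and 3001 in the library labelled Nlrc4 deficient (log2 ratio 3.22), and at 142 and 953 in the SPF colon. It was seen in 27.6% and 82.1% of thinned monocytes of the former libraries and in 6.57% and 7.12% of their B cells (unthinned, 50.5%, 93.3%, 11.2% and 18.9%). Of 13 compared antimicrobial and oxidative burst genes 4 were past 2-fold higher and none lower, beside 2.12% of all genes higher. These were Slpi, Saa3 (673 against 1639 CPM), Lcn2 and Wfdc21. The list summed to 6002 CPM in DSS colon monocytes against 10313 here, to 10643 against 22818 in neutrophils and to 5732 against 8900 in C1q-mid cells. The difference was smaller in C1q-high macrophages (5122 against 5797) and B cells (1542 against 1655). Hmox1 was at 332 against 2833 CPM (3.07) and Il10 at 147 against 667 (2.14), both of them genes that were lower in the DSS colon than in the SPF colon. Hmox1 thereby lay above both SPF libraries and Il10 between them. The antioxidant gene Srxn1 was at 27.5 against 228 CPM (2.84). Both comparisons use the DSS colon library, so the opposite directions of Hmox1, Il10 and Srxn1 in them are not independent. Type I interferon response genes were past 2-fold lower for 7 of 22, such as Ifi44 (59.1 against 3.62 CPM) and Slfn5 (474 against 183), beside 5.55% of all genes. That list was also lower in B cells (984 against 581 CPM) and C1q-high macrophages (4017 against 2614), but nearly even in neutrophils (3587 against 3557). Cxcr4, a chemokine receptor that retains cells in the bone marrow, was at 509 against 111 CPM (-2.15), and the neutrophil gene Retnlg at 86.7 against 0.906. Interferon-gamma response genes were past 2-fold lower for 3 of 18, Iigp1, Ly6a and Irf1. The median log2 ratio of that list was -0.14, against -0.22 over all genes, so the list as a whole was not lower.

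The globin genes and Il22 rested on single cells. Hbb-bs was at 16.4 CPM in the DSS colon and 337 in the library labelled Nlrc4 deficient, the largest log2 ratio of all named genes at 4.00, but 99.6% of its 2976 UMIs came from 1 of 803 monocytes. The same held for Hba-a1 (99.8%), Hba-a2 (99.9%) and Hbb-bt (99.4%). With a stricter rule (at least 4 UMIs of Ly6c2, 2 of Ccr2 and 20 of Lyz2), the log2 ratios of Hbb-bs and Hba-a2 turned to -1.77 and -1.14. Il22, an interleukin of lymphoid cells, had 0 UMIs in the DSS colon and 447 here, of which 96.9% came from 1 cell. By contrast, the top cell gave 1.38% of the UMIs of Il1a, 1.20% of those of Cxcl1 and 1.17% of those of Slpi.

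After antibiotics, monocytes held more of the chemokine transcripts Ccl3 and Ccl4 and less of several receptor genes, on 48 cells. Of 8770 genes compared, 1.39% were past 2-fold higher and 6.69% lower (6.32% also below both SPF libraries). Ccl4, a chemokine for monocytes and T cells, was at 293 and 1078 CPM in the SPF colon and 1814 after antibiotics (1682 to 1954), a log2 ratio of 1.40, and Ccl3 at 434 and 1263 against 1921 (1.17). Both were thus past 2-fold higher than the mean and above both SPF libraries, and both were also high in GF colon library 2. Csf3, the granulocyte growth factor, was at 62.4 and 129.6 CPM against 216. The largest ratio, for Atr, a DNA damage kinase, rested on 1 cell with 82.4% of its 51 UMIs, and 1 cell also gave 81.4% of Ccl5 and 93.2% of Cfb, whose directions turned without the cells of highest depth. On the lower side, Ly6a, an interferon-inducible surface antigen, had 3 UMIs after antibiotics against 413 in the SPF colon, a ratio of 23.2 (7.88 to 112.9), but the SPF libraries themselves were at 373 and 14.8 CPM. The adhesion gene Flrt3 had 1 UMI against 188, a ratio of 31.7 (5.62 to 1258), and was even between the SPF libraries at 77.5 and 86.9 CPM. The receptor kinase Axl was at 188 and 59.1 CPM against 28.7, and Fcgr4 at 91.7 and 33.6 against 20.9. Macrophage maturation genes were past 2-fold lower for 4 of 17 and MHC class II genes for 3 of 8, but against SPF colon library 2 alone none of either was, and against library 1 alone all 8 MHC class II genes were.

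No gene was called between GF and SPF colon monocytes, with 0 of 3200 genes (0.0%) at a false discovery rate of 0.05 (edgeR, quasi-likelihood, adjusted after Benjamini and Hochberg). At an unadjusted p under 0.05 there were 77 genes (2.41%), and DESeq2 called 0 with 17 at that unadjusted level. The GF group held 28 monocytes, 1 of them in library 1, and the median log2 fold change over all genes was -0.12. Chil3 was at 3438 CPM in GF colon library 2 against 563 and 699.6 in the SPF colon, with UMIs in 17 of 27 cells (63.0%, against 0.445% of B cells of that library), but had 0 UMIs in the cell of library 1 (adjusted p = 1.00 by edgeR). Without that cell Chil3 was called, with a log2 fold change of 2.56 and an adjusted p of 0.00695 by edgeR, the only call among 16 alternative settings (adjusted p by edgeR or DESeq2 up to 1.00). Vcan was at 332 CPM in GF library 2, above all other libraries, against 66.2 and 76.3. Ccl4 was at 2570.4 and 3309.8 CPM in the GF colon against 293 and 1078, with a log2 fold change of 2.00 that was not called. With the replicate number as a block it was called, at 2.11 with an adjusted p of 0.0488 by edgeR, the only call among its 16 alternatives (adjusted p by edgeR or DESeq2 from 0.0488 to 1.00). The IgA heavy chain gene Igha, a product of plasma cells, was at 0 and 19.99 CPM against 656 and 286 (log2 difference -4.54, standard error 0.95, adjusted p = 0.239 by edgeR). Igha was called in 6 of 16 alternative settings, among them the replicate block (log2 difference -3.80, adjusted p = 0.00165), with adjusted p by edgeR or DESeq2 from 0.000805 to 1.00. Of 12 tested interferon-gamma response genes none was called, and 3 had an unadjusted p under 0.05, all lower, with a median log2 fold change of -0.96. Of 18 tested cytokine genes none was called, 2 had an unadjusted p under 0.05, both higher, and the median was 0.47.

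Small intestine and SPF colon monocytes likewise gave 0 calls of 3200 genes (0.0%), on 23 small intestine cells. At an unadjusted p under 0.05 there were 108 genes (3.38%), and DESeq2 called 0 with 23 at that level. Cytokine genes lay lower on the whole: none of 18 was called, 6 had an unadjusted p under 0.05, all lower, and their median log2 fold change was -0.84 against -0.02 over all genes. Cxcl2 was at 4827 and 2831 CPM against 5487 and 10428 in the SPF colon, Tnf at 336 and 159.9 against 378 and 873, and Il1b at 642 and 2652 against 3048 and 4560.1. The groups did not overlap for these 3 of the 18 genes. How many of all tested genes did not overlap was not counted, so this adds no test. Saa3 was at 15.3 and 0 CPM against 74.7 and 106 (adjusted p = 0.681 by edgeR). Hes1, a target of Notch signalling, was at 718 and 65.8 CPM against 68.1 and 43.5, which gave a fitted log2 difference of 2.72 with a standard error of 0.65 (adjusted p = 0.681 by edgeR). Its excess lay in small intestine library 1, where 1 of 10 cells gave 44.7% of the 47 UMIs. Hes1 was called in 3 of 15 alternative settings (adjusted p by edgeR or DESeq2 from 0.00177 to 1.00), and without that library its log2 difference was 0.21. Of 7 tested MHC class II genes none was called, with a median of 0.41.

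Of the 14 inflammasome genes, 0 to 1 were past 2-fold higher and 0 to 3 lower in the comparisons of single libraries, and of the 9 tested none was called in the GF colon or the small intestine. Nlrp3, a sensor of cell stress and microbes, was at 740.3 and 1006 CPM in SPF colon monocytes, 655 in the DSS colon, 1022 in the library labelled Nlrc4 deficient, 1127 in GF colon library 2, 1157 after antibiotics and 718 and 865 in the small intestine. In thinned cells of the 4 larger colon libraries it was seen in 63.6% to 80.3% of monocytes and 4.87% to 9.60% of B cells. Its adaptor Pycard was at 122 and 69.7 CPM against 213 in the DSS colon, the only one of 14 inflammasome genes past 2-fold higher there (1.11), and none was lower. In the library labelled Nlrc4 deficient, the flagellin receptor Naip5 (11.8 CPM against 38.6 in the DSS colon), Naip6 and the DNA sensor Aim2 were past 2-fold lower than in the DSS colon and none of 14 was higher. These 3 of 14 (2 after centring, 0 with a pseudocount of 20 CPM) stand beside 5.55% of all genes lower, and the list's median log2 ratio was -0.33 against -0.22 over all genes. After antibiotics 2 of 14 were past 2-fold lower, beside 6.69% of all genes, and none higher. Casp4, which senses lipopolysaccharide in the cytosol, was at 337, 503, 384 and 389.9 CPM in SPF 1, SPF 2, the DSS colon and the library labelled Nlrc4 deficient.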

How the data were processed

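The authors deposited UMI counts for each gene in each barcode, made with Cell Ranger (3.0.2 in the file headers, with STAR 2.5.1b and mm10 in the submitters' processing notes) and not normalised. Barcodes were filtered and monocytes selected as described in the report, at 13243317 to 64453601 UMIs a library, and no doublet caller was run. The members and the 19 gene lists (297 genes, 2 of them not matched) were chosen with earlier results of these data known. UMI counts of monocytes were summed per library. SPF colon, GF colon and small intestine were fitted together in edgeR 4.0.16 (R 4.3.3, TMM, filterByExpr, quasi-likelihood test, 3 residual degrees of freedom), with DESeq2 1.42.0 as an alternative. Groups with 1 library were compared by log2 ratios of CPM with a pseudocount of 5 CPM over genes with at least 10 UMIs. The pipeline was tested on simulated data. Named were the genes of the rule, up to 15 genes with the largest change in each direction at 50 CPM or more in the higher group (no mitochondrial, ribosomal, Gm or Rik genes), called and most abundant list members, the 15 most variable and the 20 highest genes. Nos2, globin and other cell counts per gene and the share of MHC class II at or above 100 per 10000 were added after these values were seen, as were genes named outside this rule. Promoters are RefSeq windows of GRCm38.p6. Intervals are exact binomial or Poisson at 95%. Python 3.11.15, numpy 2.4.6, scipy 1.17.1, pandas 2.3.3 and matplotlib 3.10.9 were used. Alternatives were other pseudocounts and filters, stricter cells or membership, depth thinning, cells over the 95th percentile of UMIs left out, other normalisation and fits, and each replicate left out. A few genes counted in the lists are not reported here by name.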

Additional observations from a re-analysis of the deposited data

How the results depend on the processing

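Counts of called genes between replicated groups changed with the fit. For the small intestine, 0 calls became 5 with no filter on low counts, 2 with all 9 libraries in the fit, and 0 to 2 with a replicate left out, 2 of them without small intestine replicate 2, where Hes1 was called. For the GF colon, 0 became 5 with no filter, 7 with all 9 libraries, 2 with only the 2 groups in the fit, and 0 to 5 with a replicate left out, where a lone sample is assumed to vary like the other groups. With the replicate number as a block, the GF colon gave 3 calls and the small intestine 0. No label says that the numbers mark a shared batch, and 2 libraries a group are too few to tell pairing from the values. Deviations of same-numbered libraries correlated at 0.282 between the SPF and GF colon and at -0.019 and -0.0095 for the pairs of groups with the small intestine. Without GF colon replicate 2 the log2 fold changes of Edn1 and Chil3 turned to -8.41 and -11.28, on 1 cell, against up to 2.83 (Edn1) and 2.56 (Chil3) with another replicate left out.

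Genes past 2-fold higher and lower moved with the pseudocount and with the SPF colon library used. At a pseudocount of 1 CPM they were 301 and 1104 after antibiotics, 523 and 393 in the DSS colon, and 499 and 1549 in the library labelled Nlrc4 deficient. At 20 CPM they were 11 and 40, 67 and 38, and 136 and 178. At 50 UMIs or more, antibiotics gave 28 and 174. With an SPF colon replicate left out, antibiotics gave 162 to 256 higher and 363 to 704 lower, and DSS 156 to 614 higher and 127 to 321 lower, the highest without replicate 1. Centring, chosen after seeing the data, gave 375 and 300 in the library labelled Nlrc4 deficient. The 28 named genes of the DSS comparison all lay above both or below both SPF libraries. Other pseudocounts, a UMI filter or 1 SPF library alone therefore could not turn their direction. Against SPF replicate 1 alone, 20 of them were past 2-fold. With stricter cells or membership, centring, or high-UMI cells left out, all 28 kept their direction. With the stricter rule 25 of 27 did so in the library labelled Nlrc4 deficient (Hbb-bs -1.77, Hba-a2 -1.14) and 27 of 30 after antibiotics (Pbld1 -0.70, Ccl5 -0.77, Cfb -1.93); without cells of high UMI, Ccl5 was at -0.97 and Cfb at -2.08.

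Shares of monocytes with at most 10% mitochondrial UMIs and 500 genes were 6.31%, 6.12%, 8.15% and 12.9% in SPF 1, SPF 2, DSS and the library labelled Nlrc4 deficient. With the stricter rule they were 3.67%, 3.54%, 4.59% and 7.55%, and 1.40% after antibiotics. Thinned to 3000 UMIs without shallower cells, SPF 2 gave 3.75%, DSS 6.09%, the library labelled Nlrc4 deficient 6.69% and GF 2 0.558%. Monocyte numbers of 1 to 27 in the GF colon and 10 to 13 in the small intestine limit what could be detected there.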

Other observations

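Lineage regulators showed both even and uneven levels. Spi1, the myeloid master regulator, was at 459.5 and 481 CPM in SPF colon monocytes, 478 in the DSS colon, 523 in the library labelled Nlrc4 deficient, 684 in GF colon library 2 and 485 after antibiotics. Klf4 was at 638 CPM in the DSS colon against 181 in the library labelled Nlrc4 deficient (log2 ratio -1.79) and Klf2 at 192 against 58.1 (-1.64), both of them Kruppel-like factors of monocytes. Nr4a1, which drives patrolling monocytes, was at 392 against 92.8 CPM and the fractalkine receptor gene Cx3cr1 at 43.1 against 7.7, and 4 of 13 compared patrolling monocyte genes were past 2-fold lower with none higher, where 5.55% of all genes were lower with a median of -0.22. After centring on that median 4 were still past 2-fold lower, and 2 with a pseudocount of 20 CPM. The list was also lower in other cells of that library, so the fall was not particular to monocytes. It summed to 1095 CPM in DSS colon B cells against 501, to 1180 against 385 in C1q-high macrophages and to 1669 against 1268 in neutrophils. Immediate-early genes were lower in that library as well, with Fos at 1423 against 255 CPM in monocytes. The part of that shift in the levels of Klf4, Klf2 and Nr4a1 was not tested.

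Among receptors, Cd14, a co-receptor for lipopolysaccharide, was at 1240.4 CPM in the DSS colon against 3199 in the library labelled Nlrc4 deficient (log2 ratio 1.36), Clec4e, which senses fungal and mycobacterial glycolipids, at 891 against 2103 (1.23), and Clec4d at 284 against 775 (1.43). SPF colon library 2 was also high in these genes, at 3154, 1986 and 698 CPM, against 1432, 815 and 308 in library 1. Mki67, a marker of dividing cells, was seen in 8.06% to 12.9% of thinned monocytes of the 4 larger colon libraries and in 2.73% to 8.84% of B cells.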
